A study of Mus musculus with 6 samples.

Results

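The stress granule core genes are 9 genes whose proteins build, hold or restrain stress granules: G3bp1, G3bp2, Tia1, Tial1, Caprin1, Usp10, Atxn2, Ubap2l and Pabpc1. They were chosen by name, with earlier results of these data known, and all 9 were found among the 27378 genes listed for each library. RNA from whole brain of wild-type male C57BL/6J mice, an inbred strain, was sequenced after 28 days of exposure through the nose. The PS group of 3 libraries had received polystyrene nanoplastics, particles of a common packaging plastic, and the control group of 3 libraries had received sterile distilled water by the same route. The labels give no age or dose and do not say whether each library came from its own animal, and each p-value below therefore weighs only differences among these samples, part of which may be technical. The series title names condensation of TDP-43, an RNA-binding protein that enters stress granules and aggregates in amyotrophic lateral sclerosis (ALS), and the comparison asks whether RNA of the granule machinery differed between exposed and unexposed brains.

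Stress granules are droplets of RNA and protein that form in the cytoplasm when translation initiation stalls, commonly after the initiation factor eIF2alpha is phosphorylated. G3bp1 and G3bp2 bind the released mRNA and act as the scaffold, and Caprin1, Usp10 and Ubap2l bind G3bp and set how readily it condenses. Tia1, Tial1, Atxn2 and Pabpc1 are RNA-binding proteins or their partners that are gathered into the granule. The granule itself is assembled from proteins already present, so an RNA level measures the supply of a component and not granules, protein amounts or their place in the cell.

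Levels are given as FPKM, fragments per kilobase of gene length, scaled to the total reads of the library, as deposited. The values rested on 39239183 to 40335590 reads per library. Control replicate 2 lay far from the rest along the first principal component (42.3% of the variance). Each library showed brain RNA: the 8 neuron markers, among them Snap25 and Gad1, summed to 1931 to 2086 FPKM in PS and 2001 to 2091 FPKM in control libraries. Genes with a mean of at least 1 FPKM were tested, 12229 in all, with limma on log2(FPKM + 1), and a gene was called at a Benjamini-Hochberg adjusted p under 0.05 over all of them. All 9 core genes passed this filter and lay well above it in both groups.

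None of the 9 core genes was called in PS against control. Over all genes tested the same rule called 0.164%, all of them lower in PS, although other settings also called genes higher in PS. At an unadjusted p under 0.05, again 0 of the 9 passed, against 5.94% of all genes, and 0 of the 9 had groups that did not overlap, against 11.3% of all genes. With the replicate number as a block, 0 of the 9 were called, against 0.393% of all genes. With limma-voom on the reads behind the values, 1 of the 9, Tia1, had an unadjusted p under 0.05, against 6.12% of all genes. The log2 fold changes on the log2(FPKM + 1) scale lay between -0.15 and 0.07, with 5 above and 4 below 0 and a median of 0.02, where the median of all genes tested was 0.003. The 95% intervals together spanned -0.32 to 0.24, so that a decrease of over 19.9% or an increase of over 18.3% in FPKM + 1 lay outside the interval of each gene. Without control replicate 2, the log2 fold changes lay between -0.12 and 0.12 and the lowest limma adjusted p was 0.816.

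**Figure D1:**
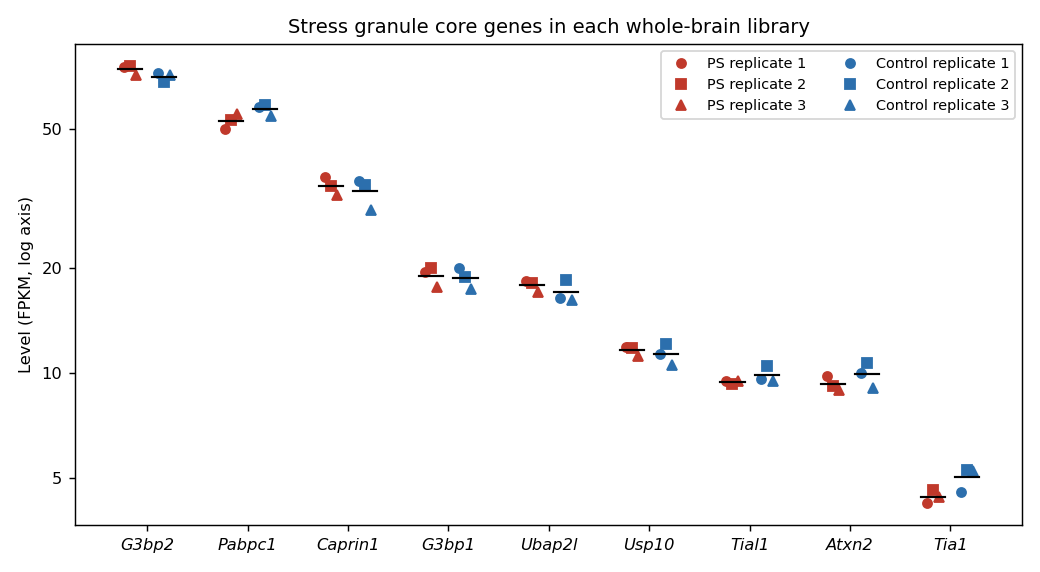
FPKM (log axis) of the 9 core genes in each library, ordered by mean level. Red points are PS replicates, blue points control replicates, shapes mark replicate numbers and black bars are group means. The 2 groups overlap in every gene, from G3bp2 at 68.3 to 75.9 FPKM down to Tia1 at 4.25 to 5.30 FPKM.

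G3bp1 and G3bp2, the paralogous scaffolds, are RNA-binding proteins whose front part, a fold like that of nuclear transport factor 2, docks partners such as Caprin1 and Usp10. The coding sequences of both open alike, and their first 65 bases, from the start codon on, are shown because identical stretches are where read counting could confuse the pair. Capitals mark the longest run that the coding sequences of the pair share exactly, 17 bases.
G3bp1: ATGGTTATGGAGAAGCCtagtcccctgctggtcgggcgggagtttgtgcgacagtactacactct
G3bp2: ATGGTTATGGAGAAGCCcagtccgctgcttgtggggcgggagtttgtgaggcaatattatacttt
Of the 65 bases, 55 are identical, yet no longer run than the capitals is shared anywhere in the GENCODE M21 coding sequences, which lie on another build than the authors'.

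G3bp2 was the most abundant core gene. It stood at 75.2, 75.9 and 71.55 FPKM in PS replicates 1, 2 and 3, against 72.2, 68.3 and 71.5 FPKM in control replicates 1, 2 and 3. The PS values of replicates 1 and 2 lay above every control value, while that of replicate 3 lay among them. The log2 fold change of 0.07 had a standard error of 0.055 (95% interval -0.05 to 0.19, limma adjusted p = 0.951). G3bp1 stood at 19.4, 20.05 and 17.6 FPKM in PS libraries, against 20.06, 18.9 and 17.4 FPKM in control libraries. These values interleaved, replicate 3 was the lowest of each group, and the log2 fold change was 0.02 (SE 0.073, limma adjusted p = 0.996). G3bp2 RNA outnumbered G3bp1 RNA per length in every library, by 3.87, 3.79 and 4.06 to 1 in PS and by 3.60, 3.62 and 4.10 to 1 in control libraries.

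Caprin1, a partner that favours condensation of G3bp, stood at 36.4, 34.4 and 32.3 FPKM in PS libraries, against 35.6, 34.6 and 29.2 FPKM in control libraries. Control replicate 3 was the lowest of the 6, and the other 2 controls lay inside the PS range. The log2 fold change of 0.05 had the widest standard error of the 9, 0.083 (limma adjusted p = 0.98). Without control replicate 3 it was -0.03, so its sign rested on that library. Usp10, a deubiquitinase that binds the same site of G3bp as Caprin1 and opposes condensation, stood at 11.9, 11.8 and 11.2 FPKM in PS libraries, against 11.4, 12.1 and 10.6 FPKM in control libraries. The PS values lay wholly inside the control range (log2 fold change 0.04, SE 0.067, limma adjusted p = 0.99). Usp10 too turned sign without control replicate 3, to -0.01.

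Ubap2l, which binds G3bp and helps nucleate granules, stood at 18.4, 18.2 and 17.1 FPKM in PS libraries, against 16.5, 18.5 and 16.2 FPKM in control libraries. All PS values exceeded control replicates 1 and 3, and control replicate 2 exceeded all PS values. The log2 fold change of 0.07 (SE 0.068, limma adjusted p = 0.975) became 0.12 without control replicate 2, with the gene still not called. The bounds of Ubap2l overlap 4933434E20Rik in RefSeq, which averaged 16.7 FPKM here, and those of Caprin1 overlap Nat10, at 3.33 FPKM. No source used here says whether the counting used strand, so reads could be split between these neighbours in a way that cannot be told apart.

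Tia1 and Tial1 (also called TIAR) are paralogs with 3 RNA recognition motifs and a prion-like tail, and they hold back translation of the mRNAs they bind. In humans, TIA1 is a gene with ALS-linked changes. The longest coding run that the pair shares exactly also has 17 bases, in capitals below within 65 coding bases of which 51 are identical.
Tia1: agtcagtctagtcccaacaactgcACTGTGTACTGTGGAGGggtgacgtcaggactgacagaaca
Tial1: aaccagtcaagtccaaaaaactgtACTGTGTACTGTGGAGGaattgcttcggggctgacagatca

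Tia1 was the least abundant core gene and had the fold change farthest from 0. It stood at 4.25, 4.62 and 4.42 FPKM in PS libraries, against 4.57, 5.30 and 5.26 FPKM in control libraries. Control replicates 2 and 3 lay above every PS value, but control replicate 1 lay below PS replicate 2, so the groups overlapped. The log2 fold change was -0.15 (SE 0.074, 95% interval -0.32 to 0.01, limma adjusted p = 0.851). On log2 FPKM without the added 1, the means differed by -0.18, against a range of 0.21 among the control libraries. Tia1 was counted from 1265 to 1551 reads per library, the fewest of the 9, which alone gives a counting error of up to 2.81% per value. Tial1 stood at 9.53, 9.34 and 9.52 FPKM in PS libraries, against 9.64, 10.5 and 9.53 FPKM in control libraries. The PS values agreed closely, control replicate 2 was the highest, and the log2 fold change was -0.06 (SE 0.061, limma adjusted p = 0.978).

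Atxn2 encodes ataxin-2, which binds poly(A)-binding protein, and in humans intermediate repeat lengths in this gene raise the risk of ALS. It stood at 9.80, 9.19 and 8.98 FPKM in PS libraries, against 10.01, 10.7 and 9.07 FPKM in control libraries. Control replicate 3 lay among the PS values and the other 2 controls above them (log2 fold change -0.08, SE 0.073, limma adjusted p = 0.975). Pabpc1, the main cytoplasmic protein on poly(A) tails and a marker used to stain granules, stood at 49.9, 53.1 and 55.2 FPKM in PS libraries, against 57.85, 58.4 and 54.5 FPKM in control libraries. Only PS replicate 3 and control replicate 3 crossed, with 55.2 above 54.5 FPKM. The log2 fold change was -0.11 (SE 0.061, 95% interval -0.25 to 0.03, limma adjusted p = 0.89).

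**Figure D2:**
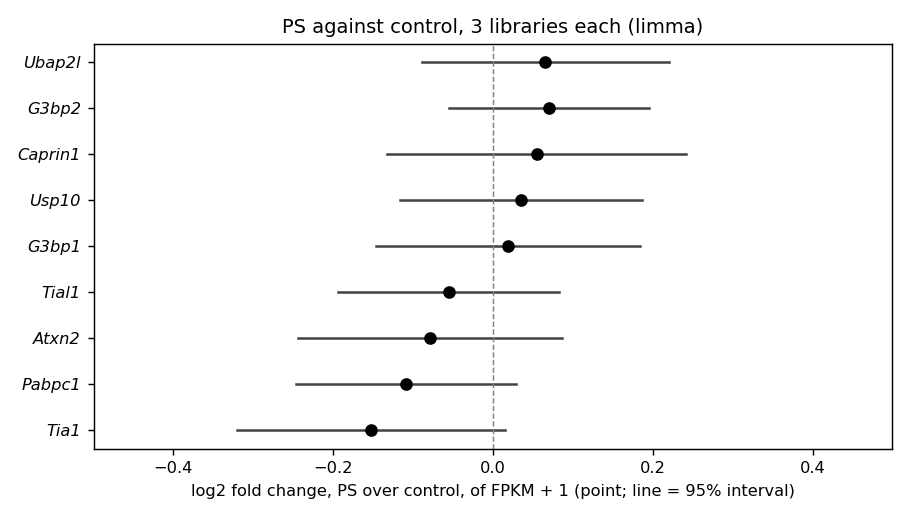
Log2 fold change of PS over control in FPKM + 1 (points) with 95% intervals from limma (lines) for the 9 core genes, 3 libraries per group. Every interval holds 0, and the points run from -0.15 for Tia1 to 0.07 for Ubap2l and G3bp2.

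Shared sequence with other genes was searched as well, in the coding bases of the core genes only. The lengths behind the FPKM values were longer, at 7437 bases for Tia1 and 2867 for Pabpc1. Their longest coding sequences had 1158 and 1908 bases. The non-coding rest was not searched, either here or for the paralog pairs above, so confusion of reads there was not tested. For G3bp2, Tial1, Caprin1, Usp10 and Atxn2, no stretch of 50 coding bases recurred in a transcript of another gene. G3bp1 shared such a stretch with 4 other genes, Pabpc1 with 3, Tia1 with 1 and Ubap2l with 1. None of those 9 genes is listed under its GENCODE name in the FPKM tables.

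The order of levels per length was G3bp2, Pabpc1, Caprin1, G3bp1, Ubap2l, Usp10, Tial1, Atxn2 and Tia1, and the highest mean was 15.3 times the lowest. Over the 6 libraries the means were 72.4 ± 2.79 FPKM for G3bp2, 54.8 ± 3.16 for Pabpc1, 33.8 ± 2.60 for Caprin1, 18.9 ± 1.16 for G3bp1 and 17.5 ± 1.02 for Ubap2l (SD, n = 6). They were 11.5 ± 0.568 FPKM for Usp10, 9.67 ± 0.405 for Tial1, 9.62 ± 0.664 for Atxn2 and 4.74 ± 0.441 for Tia1 (SD, n = 6). Tial1 and Atxn2 did not differ beyond their spread, with Tial1 the higher in 3 of 6 libraries. G3bp1 exceeded Ubap2l in 6 of 6 libraries although their ranges overlapped, and all other neighbours had ranges that did not touch. Among all genes tested, the core genes ranged from the 33.1 percentile of mean FPKM for Tia1 to the 93.5 percentile for G3bp2.

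The ratios of paralogs and partners within a library, which do not depend on scaling between libraries, did not separate the groups either. Each of 5 pairs was compared between groups with an exact two-sided permutation test, in which 3 against 3 cannot go below p = 0.1. The widest difference was in Tial1 over Tia1, at 2.24, 2.02 and 2.15 to 1 in PS libraries, against 2.11, 1.98 and 1.81 to 1 in control libraries. That is 0.12 on the log2 scale (exact permutation p = 0.2, adjusted over the 5 pairs p = 0.8), and PS replicate 2 lay below control replicate 1. Caprin1 over Usp10, the competitors for one site on G3bp, stood at 3.06, 2.92 and 2.88 to 1 in PS libraries, against 3.13, 2.86 and 2.77 to 1 in control libraries (exact permutation p = 0.8, adjusted p = 0.8). The log2 ratios of G3bp2 over G3bp1, Caprin1 over G3bp1 and Usp10 over G3bp1 differed by 0.05, 0.04 and 0.02 between PS and control (exact permutation p = 0.6, 0.5 and 0.8, adjusted p = 0.8 each).

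**Figure D3:**
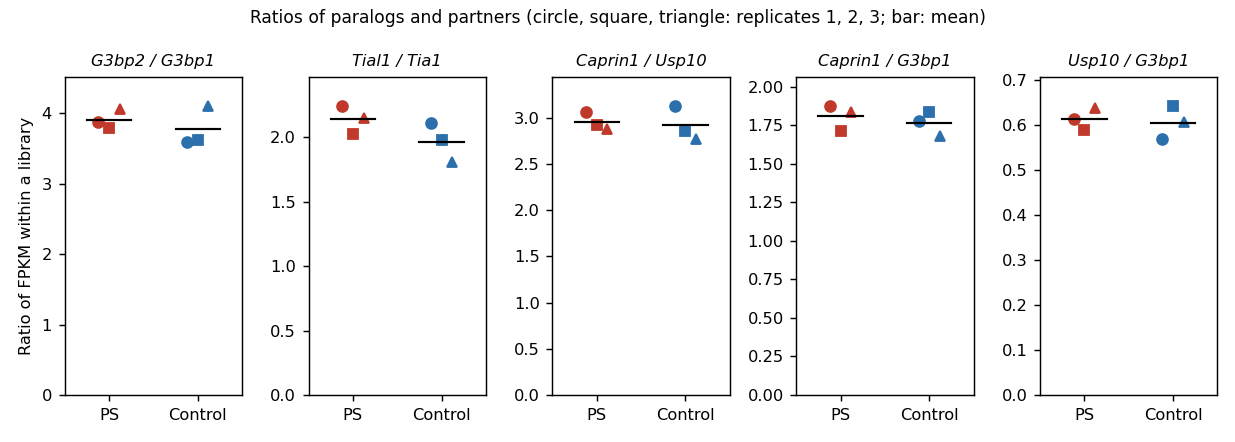
Ratio of FPKM within each library for 5 pairs of core genes, PS left of control, with axes that start at 0. Shapes mark replicates 1, 2 and 3 and bars are means. The points of the 2 groups overlap in all 5 pairs, with G3bp2 over G3bp1 at 3.60 to 4.10 and Caprin1 over Usp10 at 2.77 to 3.13.

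The core genes varied among libraries of a group by about as much as other genes did. Their within-group SD on the log2(FPKM + 1) scale was 0.044 to 0.12 with a median of 0.079, where the median over genes with a mean of at least 5 FPKM was 0.088. In 8 of 9 genes the range among the 3 controls exceeded the difference between the group means on log2 FPKM. Pabpc1 was the exception, with a control range of 0.10 and a difference of -0.11. The share of all genes tested with such a control range was not computed, so this count shows nothing particular to the core genes. Among the controls, replicate 2 was the highest in 6 of the 9 genes and replicate 3 the lowest in 7, against 33.6% and 33.0% of all genes tested. Replicate 2 was highest for Tia1, Tial1, Usp10, Atxn2, Ubap2l and Pabpc1, but lowest for G3bp2.

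Across the 6 libraries some core genes moved together, given here as a description, since the points share libraries and scaling. Usp10 and Ubap2l had a Pearson r of 0.91 on log2(FPKM + 1), Caprin1 and Usp10 0.86, and G3bp1 and Caprin1 0.84. Without the 2 libraries farthest from the median of the first gene, r was 0.88 for Usp10 and Ubap2l, -0.23 for Caprin1 and Usp10 and 0.03 for G3bp1 and Caprin1, so the last 2 relations rested on control replicate 3 and PS replicate 3. G3bp2 ran opposite to Tial1 (r = -0.83) and Pabpc1 (r = -0.81). Without control replicate 2 and PS replicate 2, r was -0.1 for Tial1, so that relation rested on these 2 libraries, and -0.82 for Pabpc1. Over all 36 pairs the median r was 0.32 and 23 pairs were positive. The pairs named above had the highest and lowest r of the 36, and each r without 2 libraries rests on the few that remained. The same values for pairs of other genes were not computed, so these values show nothing particular to the core genes. The mean profile of the 9 genes spanned only -0.056 to 0.065 around its centre, and among 7857 other genes Zfp644, Cep68, Sobp, Ak6 and Inka2 followed it most closely, with r from 0.987 to 0.999 over 6 libraries. They were picked for the highest r of 7857 over only 6 points, so the size of r is no evidence of a link.

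Of 6 paralogs that stand outside the core, Ubap2, Pabpc4 and Atxn2l were expressed enough to be tested, at 7.36 ± 0.399, 3.41 ± 0.0498 and 8.84 ± 0.297 FPKM in PS and 7.26 ± 0.295, 3.43 ± 0.111 and 8.89 ± 0.523 FPKM in control libraries (SD, n = 3 each). Their log2 fold changes lay between -0.01 and 0.02 (limma adjusted p = 0.996 for each). Caprin2, Pabpc5 and Pabpc1l averaged 0.73, 0.409 and 0.0891 FPKM over the 6 libraries and were not tested.

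Around the core, 112 further genes of the granule pathway were tested, taken from 6 lists, and 1 was called, against 0.164% of all genes tested. That gene was Dyrk3, a kinase whose activity dissolves stress granules in human cells. The lists were chosen, and Dyrk3 set to be named, with earlier results of these data known, so its call here is not an independent find. It stood at 3.17, 3.30 and 3.27 FPKM in PS libraries, against 5.48, 5.50 and 4.96 FPKM in control libraries. Every PS value lay below every control value. The log2 fold change was -0.57 (SE 0.067, 95% interval -0.72 to -0.42, limma adjusted p = 0.0153). The call was lost without control replicate 1, PS replicate 1, PS replicate 2 or PS replicate 3 (limma adjusted p = 0.122, 0.108, 0.113 and 0.0652), with log2 fold changes from -0.55 to -0.58, and with no filter on low values (limma adjusted p = 0.21).

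Dyrk3 was the 1 gene called of 18 tested in the clearance list, which also holds other kinases, the Vcp segregase and chaperones. The highest log2 fold change of that list was 0.10 and its median 0.01, with 10 genes higher and 8 lower in PS. Rptor, a subunit of mTORC1, stood at 11.0 ± 0.401 FPKM in PS and 10.2 ± 0.182 FPKM in control libraries, and Hdac6, a deacetylase found in granules, at 7.96 ± 0.455 and 7.42 ± 0.507 FPKM (SD, n = 3 each; limma adjusted p = 0.918 and 0.951). The groups did not overlap for Rptor and overlapped for Hdac6.

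Of 43 tested genes for other stress granule proteins, 0 were called, 14 had a higher and 29 a lower mean log2 value in PS, and the median log2 fold change was -0.04. Over all genes tested, 51.4% were higher and 48.6% lower. The lowest unadjusted p belonged to Zfp36, which encodes tristetraprolin and targets mRNAs with AU-rich elements for decay, at 3.03, 3.09 and 3.10 FPKM in PS libraries, against 3.57, 4.07 and 4.06 FPKM in control libraries (log2 fold change -0.26, SE 0.071, limma adjusted p = 0.468). Its groups did not overlap. Nufip2, an RNA-binding partner found in granules, stood at 4.18 ± 0.371 FPKM in PS and 5.14 ± 0.496 FPKM in control libraries, and Larp4, which binds poly(A), at 7.64 ± 0.577 and 8.46 ± 0.292 FPKM (SD, n = 3 each, with limma adjusted p = 0.716 and 0.868). The groups did not overlap for Nufip2 and overlapped for Larp4. Zfp36, Nufip2 and Larp4 were named for the lowest unadjusted p of the list, a choice that favours groups without overlap. The share of 11.3% over all genes tested is therefore not a like comparison for them, nor for genes named by this rule in the other lists. Tardbp, the gene of TDP-43, averaged 18.8 ± 0.385 FPKM in PS and 18.8 ± 0.717 FPKM in control libraries (SD, n = 3 each; limma adjusted p = 0.997).

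In the eIF2alpha pathway, the usual trigger of granules, 0 of 16 tested genes were called, 3 being higher and 13 lower in PS with a median log2 fold change of -0.04. Atf4, a transcription factor whose translation rises when eIF2alpha is phosphorylated, stood at 68.3, 74.5 and 73.5 FPKM in PS libraries, against 80.7, 78.3 and 81.1 FPKM in control libraries. The groups did not touch, but the gene was not called (log2 fold change -0.15, SE 0.057, limma adjusted p = 0.752). Ppp1r15a and Ppp1r15b, which return eIF2alpha to its unphosphorylated state, had log2 fold changes of -0.13 and -0.12, and Eif2ak3, the eIF2alpha kinase PERK, of 0.10 (limma adjusted p = 0.868, 0.902 and 0.946). The groups did not overlap for Ppp1r15a and overlapped for Ppp1r15b and Eif2ak3.

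Among 19 genes of processing bodies, the neighbouring granules of mRNA decay, 0 were called, 6 being higher and 13 lower with a median log2 fold change of -0.01. Tnrc6c, Patl1 and Edc4, which serve miRNA silencing and decapping, had log2 fold changes of -0.19, -0.17 and -0.14 (limma adjusted p = 0.842, 0.842 and 0.868). Among 14 partners of poly(A)-binding protein, 0 were called and 7 lay on each side of 0. Tob2, which links Pabpc1 to deadenylases, stood at 7.15 ± 0.809 FPKM in PS and 9.26 ± 0.198 FPKM in control libraries (SD, n = 3 each; log2 fold change -0.34, limma adjusted p = 0.337). The groups did not overlap for Tob2. Eif4g3, a translation initiation scaffold, and Tnks1bp1 had log2 fold changes of 0.11 and -0.13 (limma adjusted p = 0.926 and 0.945), and their groups overlapped.

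**Figure D4:**
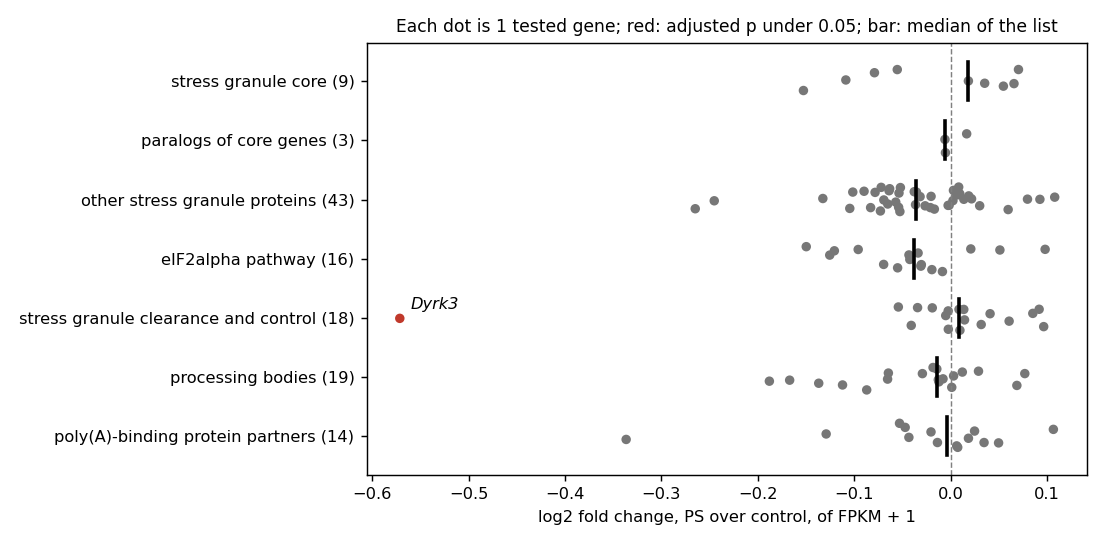
Log2 fold change of PS over control in FPKM + 1 for each tested gene of the core and of the 6 lists around it, with the number tested in brackets. Black bars are list medians, from -0.04 to 0.02, and the 1 called gene, Dyrk3 at -0.57, is in red.

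Markers of brain cell types are given beside these results (51.4% of all genes tested were higher in PS), and fewer cells of a type cannot be told apart here from less RNA per cell. Neuron markers had a median log2 fold change of 0.01 (range -0.06 to 0.01, 5 of 8 higher, 0 called) and astrocyte markers of 0.07 (range 0.02 to 0.19, 7 of 7 higher, 0 called). Oligodendrocyte lineage markers had one of 0.23 (range -0.08 to 0.34, 10 of 11 higher, 0 called) and summed to 1559 to 1753 FPKM in PS and 1137 to 1624 FPKM in control libraries. The sum of 1137 FPKM was that of control replicate 2, while control replicates 1 and 3 stood at 1498 and 1624 FPKM. Endothelial markers had a median log2 fold change of -0.14 (range -0.74 to 0.05) and were lower in 6 of 7 cases, with Vwf called. They summed to 98.0 to 106 FPKM in PS and 119.5 to 148.1 FPKM in control libraries. Most of each sum was 1 gene, Slc2a1, at 62.1 to 71.8 FPKM in PS and 80.2 to 100.7 FPKM in control libraries. Slc2a1 was not called (limma adjusted p = 0.199), so the sums do not describe the list as a whole. Vwf, the gene of von Willebrand factor, had a log2 fold change of -0.74 (limma adjusted p = 0.0101), and its call was lost without control replicate 1, PS replicate 1 or PS replicate 2 (limma adjusted p = 0.0721, 0.0621 and 0.0683) and with no filter on low values (limma adjusted p = 0.21). Blood markers were lower in 7 of 7 cases with 0 called and summed to 68.8 to 104.5 FPKM in PS and 174.7 to 208.7 FPKM in control libraries, with the T cell gene Cd3e at or near 0. With the replicate block, the blood markers Hbb-bt, Hba-a1 and Alas2 were called lower in PS (limma adjusted p = 0.0155, 0.026 and 0.0253), and with limma-voom Hbb-bt was (adjusted p = 0.0408). Microglia markers were higher in 3 and lower in 3 of 6 cases, with 0 called. The groups did not overlap for Cx3cr1, at a log2 fold change of 0.38, or for Aif1, at -0.24 (limma adjusted p = 0.22 and 0.751). They overlapped for P2ry12, at 0.18 (limma adjusted p = 0.842). The part of these marker values in the levels of Dyrk3 and of the core genes was not tested.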

How the data were processed

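FPKM values, 1 file for each library, were made and deposited by the authors. The submitters' processing notes name fastp, HISAT2, HTSeq, R 3.2.0 and the build GRCm39, without settings. The core genes, the 12 other lists and the naming rule were chosen with earlier results of these data known; the rule names, in each list, the 3 tested genes of lowest unadjusted p, any called gene, and Dyrk3, Atf4, Eif2ak3 and Tardbp. For the marker lists, counts are given instead, with sums for neuron, oligodendrocyte, endothelial and blood markers. Only some marker genes are named with values. After removal of 15149 genes averaging under 1 FPKM, log2(FPKM + 1) was compared between groups with limma 3.58.1 (R 4.3.3, variance trend, no covariates, two-sided tests). The script was tested on simulated data with changes larger than those of the core genes, so that test does not bear on differences as small as theirs.

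Library totals were recovered from 7 mitochondrial genes, after which 99.99% of genes gave whole reads in all libraries (tolerance 0.02 reads). These reads gave depth and the limma-voom alternative; counting errors cover counting only.

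Deviations from the group means correlated at 0.181, 0.185 and 0.161 between libraries of equal number, and at -0.217 to 0.025 between libraries of unequal number. Deviations within a group sum to 0, so these values depend on each other. By these data, and not by the labels, the numbers may pair the samples, so a replicate block was fitted as an alternative. Coding sequences came from GENCODE M21 and gene bounds from RefSeq, both on GRCm38, and no coordinates are given. Other alternatives were pseudocounts, filters, scalings, sample weights and each library left out.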

Additional observations from a re-analysis of the deposited data

How the results depend on the processing

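Under all 15 alternatives, 0 of the core genes tested were called, and G3bp2, Tia1, Tial1, Atxn2, Ubap2l and Pabpc1 kept their direction in each alternative that tested them (Tia1 was not tested at a mean FPKM of at least 5). G3bp1 turned to -0.065 with sample weights, to -0.032 without control replicate 3 and to -0.018 without PS replicate 2. Caprin1 turned to -0.043 with sample weights and -0.03 without control replicate 3, and Usp10 to -0.012 without control replicate 3. With 1 library left out, these 3 ranged from -0.032 to 0.07, from -0.03 to 0.107 and from -0.012 to 0.08. The cause was not tested. Tia1 reached an unadjusted p of 0.0454 with limma-voom (adjusted p = 0.801) and of 0.0252 without control replicate 1 (limma adjusted p = 0.996), and Pabpc1 of 0.0196 with sample weights (limma adjusted p = 0.123). The log2 ratio of Caprin1 over Usp10 turned to -0.018 without control replicate 3 and -0.008 without PS replicate 1, and that of Usp10 over G3bp1 to -0.026 without control replicate 1 and -0.009 without PS replicate 3; with 1 library left out they ranged from -0.018 to 0.069 and from -0.026 to 0.063.

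The 20 genes called over all genes became 9 at a mean FPKM of at least 5, 1 with no filter, 632 with sample weights and 48 with the replicate block (0.393% of genes tested), and 0 to 66 with 1 library left out. All 20 were lower in PS, whereas 297 of the 632, 3 of the 48, 17 of the 66 without control replicate 3 and the 1 with no filter were higher. The count was 0 without PS replicate 2, 2 without control replicate 1 or PS replicate 1, and 66 without control replicate 3. Of the 6 pathway lists, 1 called gene became 0 at a mean FPKM of at least 5, where Dyrk3 was not tested, and 0 with no filter. The count became 4 with sample weights, among them Nufip2 and Tob2 (limma adjusted p = 0.0335 and 0.0289), and 0 to 1 with 1 library left out. The replicate block changed no call of the core genes or the pathway lists, and added Hbb-bt, Hba-a1 and Alas2 among the named markers. With 3 libraries per group, differences of the core genes inside their 95% intervals are not excluded.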
